A study of Mus musculus with 15 samples.

Results

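The genes examined were 10 genes of the megakaryocyte and platelet lineage: Vwf, Itga2b, Itgb3, Selp, Mmrn1, Pf4, Gp9, Gp1bb, Cd9 and Clec1b. They were taken by name from the deposited table of filtered read counts, and all 10 were present among its 16154 genes. The table holds hematopoietic stem cells (HSC) of C57BL/6 mice labelled female, with 1 library per mouse and 5 libraries in each of 3 groups. Young mice were 6 to 12 weeks old and aged mice 20 to 24 months old. NR-treated aged mice were of the same labelled age and had drunk water with 3 mg/ml of NR (nicotinamide riboside, a vitamin B3 from which cells make NAD) for 2 months, while the other groups had water without NR. No young mice with NR were in the table, so the effect of NR was measured in aged mice alone. HSC were sorted as lineage-negative cells with Sca-1 and cKit, with CD150 and without CD48, and the lineage antibodies named in the methods were against B220, Mac-1, Gr-1 and Ter119, none of which marks platelets.

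Megakaryocytes are the bone marrow cells that shed platelets. Part of the HSC pool is known to carry transcripts of this lineage already, and HSC that express Vwf have been described as biased towards platelet production and as accumulating with age. The 10 genes cover the steps by which a platelet stops bleeding. Von Willebrand factor (Vwf) and its receptor complex (Gp1bb and Gp9 encode subunits of GPIb-IX) hold a platelet at a damaged vessel wall. The integrin of the αIIb (Itga2b) and β3 (Itgb3) chains binds fibrinogen. Granules expose P-selectin (Selp) and release multimerin 1 (Mmrn1) and platelet factor 4 (Pf4). Clec1b encodes the receptor CLEC-2 and Cd9 a tetraspanin of the platelet surface.

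Promoter windows from RefSeq, on GRCm38.p6, were found for 8 of the 10 genes, Vwf and Itgb3 being the other two. The 250 bases before the start of the gene are given for Selp and Clec1b, with the largest differences between aged and young HSC, for Itga2b, the gene that differed with NR, and for Pf4, with the widest spread among NR-treated mice. Capitals mark the letters AGGAAG or CCGGAA, which ETS factors bind, or TGATAA or AGATAA, which GATA factors bind, read on either strand (CTTCCT is AGGAAG on the opposite strand).
Selp, chr1:164115014-164115263, plus strand: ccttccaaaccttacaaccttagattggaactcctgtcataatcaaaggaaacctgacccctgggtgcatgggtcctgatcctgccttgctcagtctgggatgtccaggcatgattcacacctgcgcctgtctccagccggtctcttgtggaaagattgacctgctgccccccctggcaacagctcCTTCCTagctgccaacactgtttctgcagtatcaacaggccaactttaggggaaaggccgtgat
Clec1b, chr6:129397047-129397296, plus strand: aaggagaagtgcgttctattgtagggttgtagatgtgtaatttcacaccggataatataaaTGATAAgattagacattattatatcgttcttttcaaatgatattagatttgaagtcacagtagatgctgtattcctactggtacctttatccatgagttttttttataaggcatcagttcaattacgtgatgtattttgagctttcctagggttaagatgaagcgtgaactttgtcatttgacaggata
Itga2b, chr11:102469884-102470133, minus strand: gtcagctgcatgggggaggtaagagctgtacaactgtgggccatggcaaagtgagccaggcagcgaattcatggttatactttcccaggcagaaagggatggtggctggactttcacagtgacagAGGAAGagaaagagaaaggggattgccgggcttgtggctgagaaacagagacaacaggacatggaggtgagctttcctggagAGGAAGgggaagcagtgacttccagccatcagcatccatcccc
Pf4, chr5:90772185-90772434, plus strand: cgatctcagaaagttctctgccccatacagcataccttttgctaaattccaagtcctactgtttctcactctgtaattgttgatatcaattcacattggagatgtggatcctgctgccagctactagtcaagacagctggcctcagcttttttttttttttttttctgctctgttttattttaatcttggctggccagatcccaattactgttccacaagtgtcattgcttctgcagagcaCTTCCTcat

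In these windows Selp held 1 ETS sequence, 64 to 59 bases before the start on the opposite strand, and Pf4 held 1, 9 to 4 bases before it, also on the opposite strand. Itga2b held 2 on its own strand, at 125 to 120 and 43 to 38 bases before the start. Clec1b held no ETS sequence and 1 GATA sequence, 189 to 184 bases before the start. Among the 8 windows, 5 held an ETS sequence, against 38.2% of all 32851 promoters of the same length, and 2 held a GATA sequence, against 16.6%. The RUNX letters TGTGGT were in 1 of the 8 (Gp9), against 14% of promoters, and the NFE2 letters TGAGTCA in none of the 8, against 4.46%. These counts describe letters in a window and say nothing of binding. The RefSeq starts of Itga2b, Mmrn1 and Cd9 lie inside the spans that GENCODE gives these genes. The Mmrn1 window, which held a GATA sequence, lies wholly inside the span of its gene. Most of the Itga2b window and a small part of the Cd9 window also lie inside.

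On GRCm38 the 10 genes lay on 5 chromosomes. Chromosome 6 carried Vwf (125546774 to 125686679), Mmrn1 (60924976 to 60989378), Gp9 (87778072 to 87779768), Cd9 (125460266 to 125494791) and Clec1b (129397297 to 129409335). Both integrin genes were on chromosome 11, Itga2b at 102453297 to 102470122 and Itgb3 at 104608000 to 104670476, while Selp was on chromosome 1, Pf4 on chromosome 5 and Gp1bb on chromosome 16. In GENCODE M21, exons of Sept5 cover 1902 of the 2087 exonic bases of Gp1bb on the same strand, so reads of these 2 genes cannot be told apart there and the Gp1bb counts are uncertain. Clec1b shares 184 exonic bases with Clec9a on its strand.

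Total counts per library ran from 2122221 to 3631395 in young, from 764119 to 13318989 in aged and from 2486399 to 3595384 in NR-treated aged HSC. The shallowest library was aged replicate 2 and the deepest aged replicate 3, so low genes were measured with unequal precision in the aged group. The lowest count of any of the 10 genes was 3 (Clec1b in young replicate 2), and outside Clec1b every value rested on at least 27 counts. Young replicates 1 and 5 carried 99.7 and 105.5 CPM (the count relative to the size of its library) of 4 Y-linked genes, against at most 3.00 CPM in the other libraries, although all mice were labelled female. HSC markers were found in every group, with a summed level of 9 genes between 1404 and 2153 CPM. Levels throughout are CPM with library sizes scaled by the TMM method, as mean ± SD over 5 mice, and a difference was called at an adjusted p under 0.05 by edgeR's quasi-likelihood test over all 16154 genes.

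Aged HSC carried more of 5 of the 10 transcripts than young HSC. Selp, Clec1b, Itgb3, Vwf and Mmrn1 were higher and none was lower (1, Itga2b, at an unadjusted p under 0.05 and by DESeq2, and 0 by the likelihood ratio test and limma-voom), while Pf4, Gp1bb, Cd9, Gp9 and Itga2b did not pass the test. Over all genes 9.68% were called higher and 9.63% lower in this comparison, and with scaling to library totals 29.1% of the calls were higher. The median log2 fold change was 0.65 over the 10 genes and -0.03 over all genes. In the same 5 genes every aged library was above every young library, where 12.4% of all genes had groups that did not overlap. These are bulk measurements, so more cells that carry a transcript and more transcript per cell cannot be told apart. Levels of every gene in every mouse are shown in the plot of CPM by group.

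**Figure D1:**
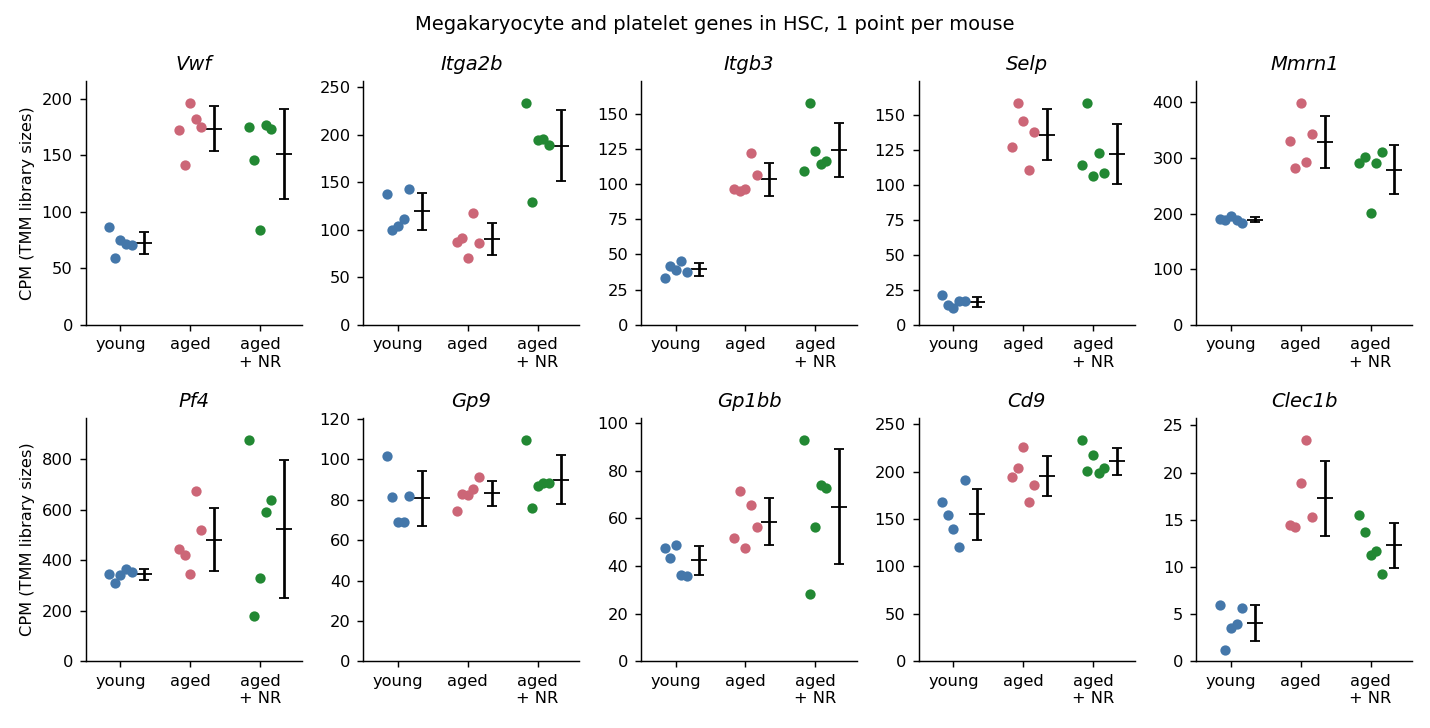
Level of the 10 genes in each of 15 libraries (y axis, CPM with TMM library sizes, from 0), with 1 column per group, 1 point per mouse and the mean ± SD as a bar at the right. Aged and NR-treated libraries lie above all young ones in Selp (106.6 CPM and higher against at most 21.4), and NR-treated points spread most in Pf4, from 179.8 to 876 CPM.

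Of the granule genes among the 10, Selp had the largest fold change with age. P-selectin is held in the granule membrane and, once exposed, binds leukocytes. The 5 young libraries had 21.4, 14.1, 12.1, 17.1 and 17.3 CPM, the aged ones 126.9, 158, 146, 110.4 and 138 CPM and the NR-treated ones 114, 158, 106.6, 123 and 108 CPM. Neither aged group overlapped with young, and both covered nearly the same range. Selp was 8.16-fold higher in aged than in young HSC (95% interval 6.49 to 10.3, log2 fold change 3.03 ± 0.16 SE, adjusted p = 6.45e-11). NR-treated and aged HSC differed by -0.15 on the log2 scale (95% interval -0.43 to 0.14, adjusted p = 0.537), and NR-treated HSC stayed 7.38-fold above young (adjusted p = 1.64e-10).

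Vwf encodes the multimeric protein that tethers platelets under flow. It was at 86.7, 59.5, 75.0, 71.5 and 70.7 CPM in young, at 173, 141, 196, 182 and 176 CPM in aged and at 175, 146, 83.6, 177 and 173 CPM in NR-treated aged HSC. All aged libraries were above all young ones, whereas NR-treated replicate 3 fell inside the young range and the other 4 inside the aged range. Vwf was higher in aged than in young HSC by 1.27 on the log2 scale (95% interval 0.92 to 1.61, adjusted p = 2.81e-05) and 2.08-fold higher in NR-treated than in young HSC (adjusted p = 0.000449). Between NR-treated and aged HSC the log2 difference was -0.21 (95% interval -0.54 to 0.13, adjusted p = 0.435).

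Mmrn1, a granule protein that binds coagulation factor V, showed the same order of groups. Young libraries lay closely together, at 189.8, 188, 196, 189 and 183 CPM, with a coefficient of variation of 2.51%. Aged libraries had 329.8, 282, 398, 292 and 343 CPM, and NR-treated ones 291, 301, 201, 290.4 and 309.9 CPM, the lowest being replicate 3 once more. No young library reached the level of any other group. The gene was 1.75-fold higher in aged (95% interval 1.47 to 2.08, adjusted p = 0.000115) and 1.48-fold higher in NR-treated HSC (1.24 to 1.75, adjusted p = 0.00783) than in young HSC. NR-treated and aged HSC differed by -0.24 on the log2 scale, with an interval from -0.49 to 0.00 and an adjusted p of 0.207.

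Pf4, a granule chemokine made largely by the megakaryocyte lineage, passed the test in no comparison. It ranged from 309 to 367 CPM in young HSC (344 ± 21.7), from 347 to 674 CPM in aged HSC (481 ± 125) and from 179.8 to 876 CPM in NR-treated HSC (523 ± 273). The NR-treated libraries had 876, 179.8, 330.2, 589.9 and 638 CPM, so replicate 2 was below and replicates 1, 4 and 5 were above every young library. The coefficient of variation was 6.32% in young, 25.9% in aged and 52.2% in NR-treated HSC. Log2 differences were 0.49 for aged against young (95% interval -0.09 to 1.06, adjusted p = 0.226), 0.12 for NR-treated against aged (-0.45 to 0.69, adjusted p = 0.828) and 0.60 for NR-treated against young (0.03 to 1.18, adjusted p = 0.25). Without NR-treated replicate 2 the last of these was 0.82 and passed (adjusted p = 0.0335). The first, aged against young, passed when only the 2 groups compared were fitted (adjusted p = 0.0369).

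Of the integrin chains, Itgb3 was higher in both aged groups than in young HSC and Itga2b was higher with NR. Itgb3, which encodes β3 and also pairs with αv in other cells, was at 33.0, 41.8, 38.6, 44.99 and 37.8 CPM in young, at 96.5, 94.7, 96.6, 122 and 106 CPM in aged and at 109, 157, 123, 114 and 116 CPM in NR-treated HSC. No young library came near the others. It was 2.64-fold higher in aged (95% interval 2.21 to 3.17, adjusted p = 2.08e-07) and 3.16-fold higher in NR-treated HSC (2.64 to 3.80, adjusted p = 3.7e-08) than in young HSC. Between NR-treated and aged HSC the log2 difference was 0.26 (95% interval 0.01 to 0.51, adjusted p = 0.18).

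Itga2b, whose product αIIb (CD41) is an early surface mark of the megakaryocyte lineage, was the only 1 of the 10 genes called between NR-treated and aged HSC. Young libraries had 138, 100.1, 104, 111 and 143 CPM, aged ones 86.9, 90.8, 70.0, 117 and 85.6 CPM and NR-treated ones 233, 129, 195, 195 and 189 CPM. Every NR-treated library was above every aged one, and only replicate 2 lay within the young range. Itga2b was 2.10-fold higher in NR-treated than in aged HSC (95% interval 1.67 to 2.63, log2 fold change 1.07 ± 0.16 SE, adjusted p = 0.00106). In this comparison 3.88% of all genes were called higher and 4.18% lower (78.4% of calls higher with library totals), and 8.6% had groups that did not overlap. None of the 10 genes was lower, by edgeR (0 at an unadjusted p under 0.05), DESeq2 or limma-voom. Against young HSC Itga2b was 1.58-fold higher with NR (95% interval 1.26 to 1.97, adjusted p = 0.0171), and without NR-treated replicate 1 the adjusted p was 0.0516. Aged and young HSC differed by -0.41 (95% interval -0.74 to -0.08, adjusted p = 0.0722), and this difference passed under 7 of 26 alternatives, DESeq2 (adjusted p = 0.048) and scaling to library totals (0.0222) among them. Young replicates 1 and 5, which carried Y-linked reads, had the highest young levels (138 and 143 CPM). Without them the difference was -0.23 (adjusted p = 0.426), and with thinned libraries it was -0.28 (adjusted p = 0.372).

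Since the 2 chains form 1 receptor, the log2 ratio of Itga2b to Itgb3 counts within each library was taken, a description chosen after the levels had been seen, given with no test and free of any scaling between libraries. It was 1.59 ± 0.37 in young, -0.21 ± 0.18 in aged and 0.59 ± 0.52 in NR-treated HSC. Young replicates 1 and 5, which carried Y-linked reads, had 2.06 and 1.92, and the other young libraries 1.26 to 1.43. In each young library the ratio (1.26 to 2.06) was above that of all other mice. NR-treated replicate 2, at -0.28, was inside the aged range of -0.47 to -0.06, and the other 4 NR-treated mice, at 0.66 to 1.09, were above it.

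**Figure D2:**
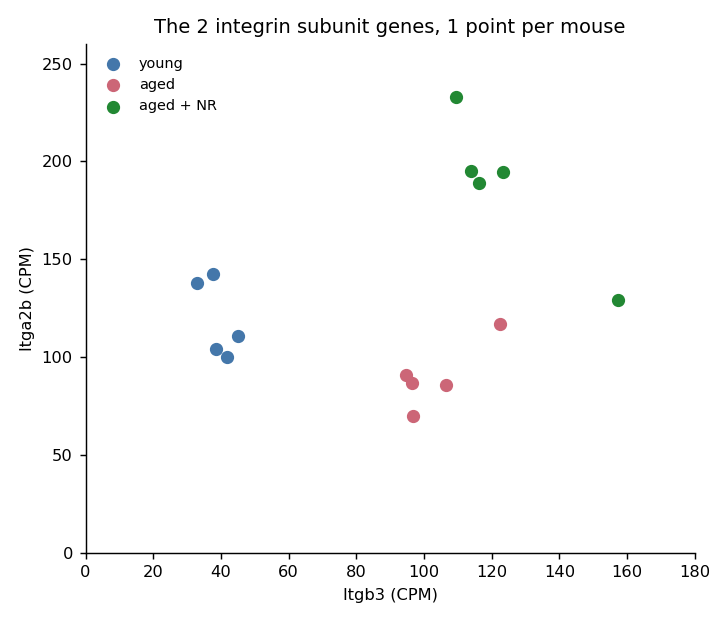
Itga2b (y axis) against Itgb3 (x axis), both in CPM, with 1 point per mouse coloured by group. Young mice sit at 33.0 to 44.99 CPM of Itgb3, aged mice at higher Itgb3 with at most 117 CPM of Itga2b, and 4 of 5 NR-treated mice above 188 CPM of Itga2b, the exception being replicate 2 at 129 CPM.

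Of the subunits of the von Willebrand factor receptor, neither Gp9 nor Gp1bb passed the test in any comparison, and their difference from Vwf was not tested. Gp1ba, the chain that binds von Willebrand factor and 1 of the other genes listed further on, was at 7.85 ± 3.43, 8.66 ± 2.68 and 8.99 ± 3.53 CPM in young, aged and NR-treated HSC (log2 difference 0.02 with age, 95% interval -0.69 to 0.73), and it passed the test in no comparison either. Gp9 was at 80.6 ± 13.4 CPM in young, 83.3 ± 6.14 CPM in aged and 89.9 ± 12.2 CPM in NR-treated HSC, with ranges of 68.9 to 101.8, 74.3 to 91.4 and 76.0 to 109.6 CPM that overlapped in every pair of groups. Its log2 differences were 0.04 (95% interval -0.21 to 0.30, adjusted p = 0.845), 0.11 (-0.14 to 0.37, adjusted p = 0.608) and 0.16 (-0.10 to 0.41, adjusted p = 0.562) for aged against young, NR-treated against aged and NR-treated against young HSC. The sign of the first turned under library totals and 4 other alternatives. Between aged and young HSC the interval reached at most 1.23-fold.

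Gp1bb, with the overlap described above, was at 42.4 ± 6.17, 58.5 ± 9.83 and 64.9 ± 24.2 CPM in young, aged and NR-treated HSC. NR-treated replicate 2 had 28.3 CPM, under all young libraries, and replicate 1 had 92.9 CPM, the highest of the 15. Log2 differences were 0.44 (95% interval -0.01 to 0.90, adjusted p = 0.166) for aged against young and 0.62 (0.16 to 1.07, adjusted p = 0.123) for NR-treated against young HSC. Leaving out NR-treated replicate 2 gave adjusted p = 0.0476 for the first and 0.00563 for the second, with a log2 difference of 0.81 in the latter. The difference between aged and young HSC also passed when only the 2 groups compared were fitted (adjusted p = 0.0447). NR-treated and aged HSC differed by 0.18 (-0.27 to 0.62, adjusted p = 0.645).

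Clec1b, the receptor for podoplanin, had the fewest counts of the genes. Its levels were 5.97, 1.21, 3.59, 3.99 and 5.66 CPM in young, 14.5, 14.3, 18.9, 23.5 and 15.3 CPM in aged and 15.5, 13.7, 11.3, 11.7 and 9.26 CPM in NR-treated HSC. All young libraries were under the lowest of the others, and aged and NR-treated ranges overlapped. Clec1b was 4.17-fold higher in aged (95% interval 2.77 to 6.28, adjusted p = 5e-05) and 2.93-fold higher in NR-treated HSC (1.93 to 4.45, adjusted p = 0.00263) than in young HSC. With all libraries thinned to the smallest total of 764119 counts, the second adjusted p was 0.0857. NR-treated and aged HSC differed by -0.51 on the log2 scale (95% interval -1.03 to 0.01, adjusted p = 0.211).

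Cd9 encodes a tetraspanin that is also widely found on stem and progenitor cells. It was at 168, 155, 139.7, 120.1 and 191 CPM in young, at 194.5, 204, 225, 168 and 186 CPM in aged and at 233, 201, 217, 198 and 204 CPM in NR-treated HSC. Young and aged libraries overlapped, and all NR-treated libraries were above all young ones. The difference between aged and young HSC was 0.34 (95% interval 0.09 to 0.58, adjusted p = 0.0524), and 5 of 26 alternatives put it past the threshold. NR-treated HSC were 1.36-fold above young (95% interval 1.15 to 1.61, adjusted p = 0.0349), a call kept in 17 of 26 alternatives and lost without any 1 of the NR-treated libraries. NR-treated and aged HSC differed by 0.11 (-0.14 to 0.35, adjusted p = 0.602).

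Against young HSC, NR-treated aged HSC had 7 of the 10 genes higher: Itgb3, Selp, Vwf, Clec1b, Mmrn1, Itga2b and Cd9. None was lower, with 0 at an unadjusted p under 0.05 and 0 by DESeq2 or limma-voom. Over all genes 2.56% were called higher and 1.91% lower. The groups did not overlap for 5 of the 10, Itgb3, Selp, Mmrn1, Cd9 and Clec1b, where 4.74% of all genes did not overlap. The median log2 fold change of the 10 genes was 0.64, against -0.01 over all genes, and for NR-treated against aged HSC it was 0.11 against 0.02. The comparisons share libraries, so their values are set side by side without a test of likeness.

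**Figure D3:**
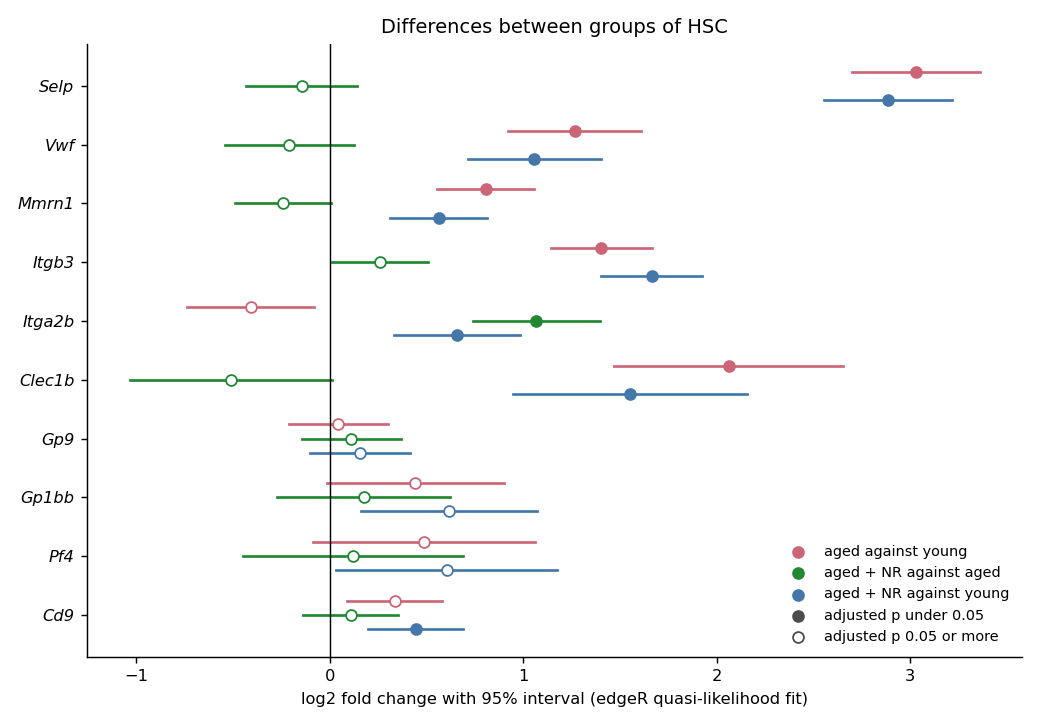
Log2 fold change (x axis) with its 95% interval for each gene (y axis) in the 3 comparisons, from the edgeR quasi-likelihood fit, with filled points for an adjusted p under 0.05. Intervals of Selp, Itgb3, Vwf, Clec1b and Mmrn1 lie above 0 against young HSC in both aged groups, and Itga2b has the only filled point for NR-treated against aged HSC, at 1.07.

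The 10 genes were also compared with each other from mouse to mouse, as deviations of log2 CPM from the group mean over the 15 libraries. Of 45 pairs, 27 correlated positively, with a median r of 0.12 and a range from -0.63 to 0.86. By permutation within groups, 1 pair passed after Benjamini-Hochberg adjustment over the 45, Itga2b with Pf4 (Pearson r = 0.76, permutation p = 0.00091, adjusted p = 0.041; Spearman rho = 0.62, p = 0.0164, adjusted p = 0.346). Without aged replicate 3 and NR-treated replicate 2, the 2 libraries farthest from the median of Itga2b, r was 0.48. Pf4 with Gp1bb had the highest r, 0.86 (permutation p = 0.00539, adjusted p = 0.121; rho = 0.53, permutation p = 0.0883, adjusted p = 0.397), and 0.49 without NR-treated replicates 1 and 2. Vwf with Mmrn1 had r = 0.81 (permutation p = 0.0104, adjusted p = 0.157; rho = 0.67, permutation p = 0.0146, adjusted p = 0.346), and 0.19 without aged replicate 2 and NR-treated replicate 3. The libraries left out were chosen for their distance on 1 gene of the pair, which narrows its range, and the same step raised r of Itga2b with Clec1b from 0.45 (adjusted permutation p = 0.283) to 0.83. By rank 0 of 45 pairs passed (6 at an unadjusted permutation p under 0.05).

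Likeness to Vwf and to Pf4 was measured in the same way against the 10210 genes that averaged 5 CPM or more. Nearest to Vwf over the 15 libraries were Acap3 (r = 0.86), Pygm (0.86), Rnpepl1 (0.86), Ptpn12 (0.85) and Ovca2 (0.85). Nearest to Pf4 were Tuba1b (r = 0.89), an α-tubulin, Scd2 (0.89), a fatty acid desaturase, Rap1b (0.89), a small GTPase that platelets use for integrin activation, Cdca7 (0.88) and Abcc4 (0.87), a nucleotide transporter. These are the highest of many values and are given as a description.

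Other genes of platelets and megakaryocytes were taken as 5 lists, of which 76 of 82 genes had a row, and they did not move one way. In aged against young HSC 14 were higher and 12 lower (9.68% and 9.63% of all genes), with a median log2 fold change of -0.03 (-0.03 over all genes). In NR-treated against aged HSC 8 were higher and 5 lower (3.88% and 4.18% of all genes), and in NR-treated against young HSC 6 were higher and 3 lower (2.56% and 1.91%). The plot of the lists shows both directions in each of them with age.

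**Figure D4:**
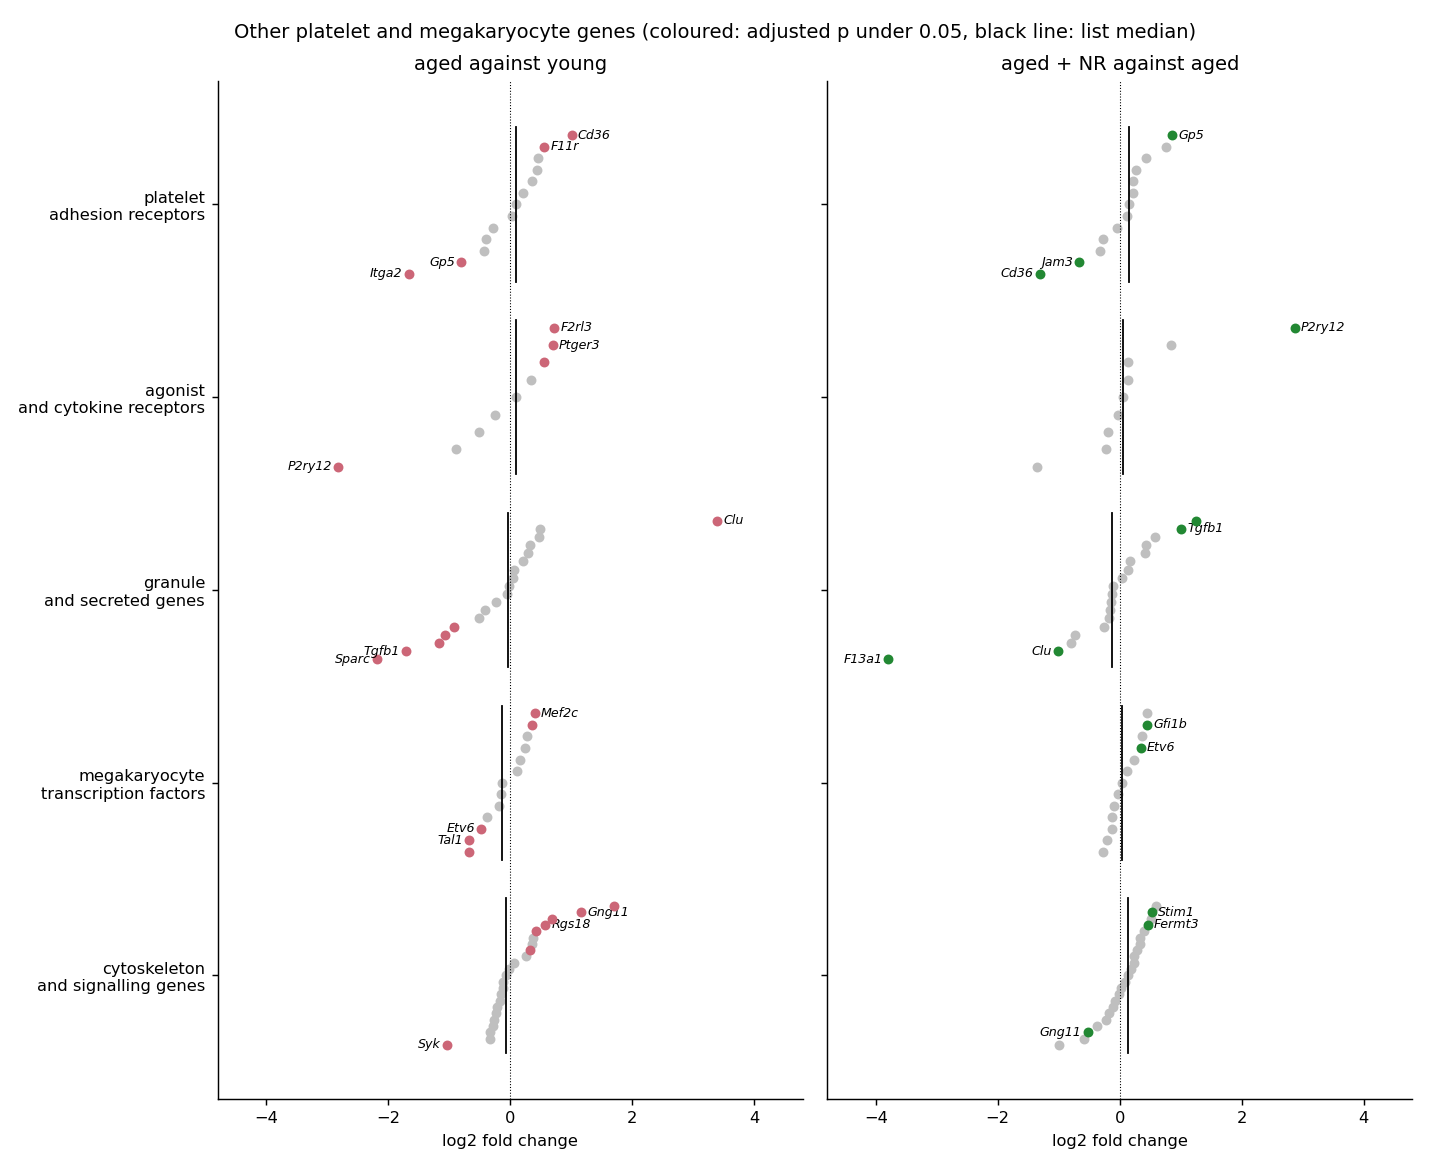
Log2 fold change (x axis) of the 76 other platelet and megakaryocyte genes by list (y axis), for aged against young (left) and NR-treated against aged HSC (right), 1 point per gene. Coloured points have an adjusted p under 0.05 and the black line is the list median, which lies between -0.13 and 0.15 in every list shown.

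Among 13 adhesion receptors, 2 were higher and 2 lower in aged than in young HSC (9.68% and 9.63% of all genes). F11r, the junctional adhesion molecule A, was 1.47-fold higher (adjusted p = 0.00821) and Cd36, a thrombospondin and lipid receptor, 2.01-fold higher (adjusted p = 0.0312). The Cd36 call with age was kept in 17 of 25 alternatives and was lost with library totals, the replicate block and without young replicates 1 and 5, among others, with adjusted p up to 0.287. Gp5, which encodes a further subunit of the von Willebrand factor receptor, was lower in aged HSC, at 21.1 ± 4.58 against 35.8 ± 4.79 CPM (log2 fold change -0.81, adjusted p = 0.029, a call kept in 20 of 26 alternatives), as was Itga2, the collagen-binding integrin chain (-1.67, adjusted p = 0.0166). In NR-treated HSC Gp5 was at 37.0 ± 14.4 CPM, higher than in aged HSC by 0.86 (adjusted p = 0.0404), a call kept in 14 of 26 alternatives. Cd36 was lower with NR by 1.31 on the log2 scale (adjusted p = 0.0188), and Jam3, another junctional adhesion molecule, was lower at 16.7 against 26.7 CPM (adjusted p = 0.0418).

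Of 9 agonist and cytokine receptors, 3 were higher and 1 lower with age (9.68% and 9.63% of all genes). F2rl3, the thrombin receptor PAR4, was at 35.3 ± 7.31 CPM in young, 57.7 ± 4.07 CPM in aged and 63.6 ± 9.28 CPM in NR-treated HSC, 1.65-fold higher with age (adjusted p = 0.00175) and 1.81-fold above young in NR-treated HSC (adjusted p = 0.000933). Ptger3, a prostaglandin E2 receptor, was 1.62-fold higher in aged than in young HSC (adjusted p = 0.00342). P2ry12, the ADP receptor, was at 0.898 to 3.51 CPM in young and 0.847 to 4.75 CPM in NR-treated HSC. In aged HSC it was at 0 to 0.533 CPM. These were at most 3 counts in any aged library, and the lowest libraries of the other groups were also at or under 3 counts, so the gene was near the limit of detection throughout. The test called aged HSC lower than young (adjusted p = 0.00484) and NR-treated HSC (adjusted p = 0.0124). Both calls were lost when libraries were thinned to the smallest total, the first also without young replicates 1 and 5 and the second without aged replicate 3.

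The 18 granule and secreted genes had 1 member higher and 5 lower with age (9.68% and 9.63% of all genes). Clu, the chaperone clusterin, was at 29.6 ± 4.13 CPM in young, 311 ± 18.4 CPM in aged and 153 ± 63.3 CPM in NR-treated HSC, 10.5-fold higher with age (95% interval 7.33 to 14.95, adjusted p = 1.03e-08). It was lower with NR than in aged HSC by 1.01 on the log2 scale (adjusted p = 0.0111) and remained 5.18-fold above young (adjusted p = 1.98e-06). Tgfb1, the growth factor TGF-β1, took the opposite course, at 27.6, 8.27 and 17.2 CPM in the same order (log2 fold change -1.71 with age, adjusted p = 0.000148, and 1.01 with NR, adjusted p = 0.0249). Sparc, a collagen-binding protein, was lower in aged than in young HSC at 0.642 against 3.27 CPM (adjusted p = 0.0165). Its levels were low, 0.898 to 5.08 CPM in young and 0 to 1.6 CPM in aged HSC. The call was kept in 22 of 24 alternatives and lost when thinned and without young replicate 4, with adjusted p up to 0.427.

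F13a1, the coagulation factor XIII A chain that monocytes also make, was at 34.1 to 119.6 CPM in aged and 0.365 to 17.4 CPM in NR-treated HSC (log2 fold change -3.79, adjusted p = 0.0205). In young HSC it reached 221 CPM in replicate 3 and lay between 2.01 and 37.4 CPM in the other 4. Summed monocyte and macrophage markers were at 3059 CPM in young replicate 3 and at 370 to 932 CPM in the other young libraries, at 860 to 2218 CPM in aged and at 296 to 530 CPM in NR-treated HSC. The part of monocytes in the F13a1 values was not tested.

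Transcription factors of the lineage differed by small amounts. Of 13, 2 were higher and 3 lower in aged than in young HSC (9.68% and 9.63% of all genes). Higher were Mef2c (1.32-fold, adjusted p = 0.00535) and Nfe2 (1.27-fold, adjusted p = 0.0105). Lower were Etv6 (0.71-fold, adjusted p = 0.00222), Tal1 (0.63-fold, adjusted p = 0.00432) and Gata1 (0.62-fold, adjusted p = 0.0397). The Gata1 call was lost when libraries were thinned, without young replicates 1 and 5 together, and without young replicate 1, 3, 4 or 5 or aged replicate 1, 3 or 5 alone, and that of Nfe2 when thinned, with library totals and without young replicates 1 and 5. In NR-treated HSC Etv6 was 1.27-fold (adjusted p = 0.0382) and Gfi1b 1.36-fold (adjusted p = 0.0353) higher than in aged HSC. Between NR-treated and young HSC 0 of the 13 were called by edgeR, DESeq2 or limma-voom (2 higher and 0 lower at an unadjusted p under 0.05). Over all genes 2.56% were called higher and 1.91% lower in this comparison, so a count of 0 among 13 is near the share of all genes. Gfi1b was at 114 against 92.2 CPM (adjusted p = 0.182) and Tal1 at 116 against 135 CPM (adjusted p = 0.462).

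Among 23 cytoskeleton and signalling genes 6 were higher and 1 lower with age (9.68% and 9.63% of all genes). Gng11, a G protein γ subunit, was at 269.7 ± 26.7 CPM in young, 603 ± 62.8 CPM in aged and 419 ± 40.7 CPM in NR-treated HSC, and every pair of groups differed (adjusted p = 2.47e-07, 0.00773 and 0.000793 for aged against young, NR-treated against aged and NR-treated against young). Rgs18, a regulator of G protein signalling in platelets, was 1.49-fold higher in aged than in young HSC (adjusted p = 0.00119). Syk, the kinase that signals below CLEC-2, was lower, at 33.8 ± 7.36 against 69.7 ± 14.2 CPM (adjusted p = 0.00136), while Clec1b itself was higher. With NR, Fermt3, which encodes the integrin activator kindlin-3, was 1.38-fold (adjusted p = 0.0387) and Stim1, a calcium sensor, 1.44-fold higher than in aged HSC (adjusted p = 0.0472). Of the calls between NR-treated and aged HSC named above, Gng11 and Clu were kept in 26 of 26 alternatives, F13a1 in 23 of 25, Cd36 in 22 of 25 and Tgfb1 in 21 of 25. Gfi1b and Fermt3 were kept in 19 of 26, Etv6 in 15, Jam3 in 14 and Stim1 in 12.

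Transcripts of other blood cells were at unequal levels in the groups. Summed over 8 erythroid genes, levels were 126 to 2644 CPM in young, 3176 to 6480 CPM in aged and 66.5 to 555 CPM in NR-treated HSC. B cell and plasma cell genes (6 measured) were at 100.5 to 767, 596 to 4369 and 84.0 to 164 CPM, and 9 granulocyte genes at 23.7 to 5500, 1070 to 1682 and 15.7 to 171.5 CPM. In NR-treated HSC 2 of the B cell genes, 1 of the granulocyte genes and 2 of the 7 monocyte genes were at or under 3 counts in every library. The 5 T and NK cell genes were at 96.3 to 172, 80.1 to 109 and 42.0 to 150.3 CPM and the 5 basophil and mast cell genes at 6.20 to 719, 75.0 to 304 and 11.6 to 41.4 CPM. The part of these cells in the difference of Itga2b between NR-treated and aged HSC was not tested.

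The 4 endothelial genes measured, of interest because endothelium also makes Vwf, Selp and Mmrn1, had summed levels of 33.0 to 51.4, 35.0 to 50.9 and 29.4 to 43.2 CPM. Kdr was at 6.72 CPM in young, 19.3 CPM in aged and 14.8 CPM in NR-treated HSC. It was called higher than in young HSC in both aged groups (adjusted p = 3.47e-05 and 0.00212). Emcn, the highest of the 4, went the other way, at 29.1, 21.3 and 18.0 CPM. It was not called (adjusted p = 0.137 with age, 0.419 with NR and 0.0538 for NR-treated against young HSC). Plvap and Fabp4 were low, Fabp4 reaching 6.045 CPM in aged HSC and both at most 3.00 CPM in NR-treated HSC. In the HSC list 5 of 9 genes were higher with age (9.68% of all genes) and 0 lower. Among them was Slamf1, which encodes the sorting marker CD150. It was at 42.7 ± 8.26 CPM in young, 76.5 ± 9.81 CPM in aged and 53.7 ± 6.02 CPM in NR-treated HSC (adjusted p = 0.000373 with age and 0.0288 with NR). Slamf1 was the only 1 of the 9 called lower with NR (4.18% of all genes), and 8 were not called. Ly6a, which encodes the sorting marker Sca-1, was at 130.7, 301 and 239 CPM (adjusted p = 0.000113 with age and 0.235 with NR). Cd48, Flt3 and Cd34, genes of CD48-positive and other progenitors, had summed levels of 164.9 to 246 CPM in young, 85.6 to 119 CPM in aged and 76.0 to 98.4 CPM in NR-treated HSC, so that young libraries overlapped with neither aged group, as for 4 of the 5 genes that were higher with age. Of the 3, Flt3 and Cd34 were lower than in young HSC in both aged groups (for Cd34 log2 fold changes of -1.26 and -1.16, adjusted p = 3.08e-07 and 1.73e-06), while Cd48 itself was at 12.2, 24.2 and 3.50 CPM (adjusted p = 0.125 with age and 0.00776 with NR). The part of CD150 or of progenitors among the sorted cells in the levels of the 10 genes was not tested.

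**Figure D5:**
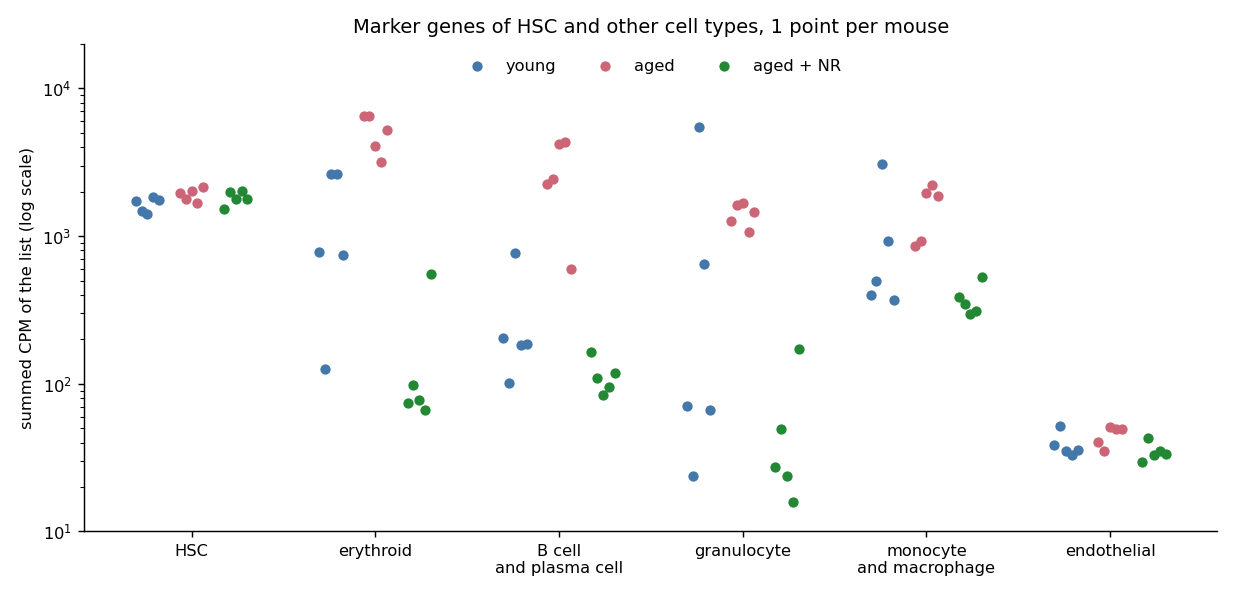
Summed CPM (y axis, log scale) of marker genes of HSC and of 5 other cell types (x axis) in the 15 libraries, 1 point per mouse coloured by group. HSC markers lie between 1404 and 2153 CPM in all libraries, whereas erythroid markers reach 3176 to 6480 CPM in aged and 66.5 to 555 CPM in NR-treated HSC.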

How the data were processed

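RNA-seq libraries of sorted HSC, made with 3′ priming and carrying molecular identifiers (UMI) of 10 bp, from 20000 to 25000 cells of single mice, were measured in 15 mice. The authors aligned reads with STAR 2.4.2a to GRCm38 (mm10), dropped reads with repeated UMIs, counted the rest on GENCODE M15 exons with featureCounts, and kept genes with more than 5 reads and 2 CPM in at least 2 samples. The deposited values are raw counts per gene, not normalised.

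From these counts all 15 libraries were fitted at once in edgeR 4.0.16 with TMM library sizes, and each pair of groups was compared by the quasi-likelihood test, p-values being adjusted by the Benjamini-Hochberg method across 16154 genes. The third group thus adds to the estimate of spread. Depth sets precision: 764119 to 13318989 counts per library. Up to 3 counts were taken as not told from absence, covering counting error only. No library was a copy of another. Each library is a separate mouse, so p-values measure the spread between mice.

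The 10 genes and all lists were chosen with earlier results of these data known. From each of the 5 pathway lists, up to 3 called genes with the smallest adjusted p and a mean of at least 1 CPM were named for aged against young and again for NR-treated against aged HSC. Nfe2 and Gata1 were named after their values were seen. Correlations used log2 CPM (prior count 2) and 100000 permutations within groups. Positions came from GENCODE M21 and promoters from RefSeq. Replicate numbers name separate mice, and no pairing was assumed in the reported fit. The fit was tested on simulated data. Alternatives were the likelihood ratio test, DESeq2 1.42.0, limma-voom (limma 3.58.1), 2 groups alone, library totals, DESeq2 size factors, filters at 10 counts and 5 CPM, thinning, a replicate block, stricter thresholds, and leaving out single libraries or young replicates 1 and 5.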

Additional observations from a re-analysis of the deposited data

Results flagged for a closer look

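The 93 groups of 5 libraries examined covered 31 genes, the 10 genes and those named by the rule from the 5 lists. Other genes named in the report were not examined in this way. Of these 93 groups, 5 held 1 library far from the other 4, where chance gives about 1 in 20. Of the 30 groups of the 10 megakaryocyte and platelet genes, 1 did: Mmrn1 was at 200.7 CPM in NR-treated replicate 3 and at 290.4 to 309.9 CPM in the other NR-treated libraries, and Vwf was also lowest in that library.

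Ptger3 was at 68.49 CPM in aged replicate 1, against 48.2 to 53.5 CPM in the other aged libraries. Clu was at 36.85 CPM in young replicate 1, against 26.9 to 28.9 CPM in the other young libraries. F13a1 stood apart in young replicate 3 (221.4 CPM, others 2.01 to 37.4 CPM) and in NR-treated replicate 5 (17.43 CPM, others 0.365 to 3.89 CPM). Both are the libraries with the highest summed granulocyte and monocyte markers of their group, and the part of these cells was not tested.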

How the results depend on the processing

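Of 777 recomputed differences of the 10 genes, 741 kept their direction and their side of the threshold, 11 lost a call, 18 gained one and 7 turned sign. The 5 genes called higher with age were called in every alternative of fit, filter or samples that tested them (26, or 25 for Clec1b), and Itga2b between NR-treated and aged HSC in 26 of 26. Library totals shifted the median of all genes from -0.03 to -0.16 for aged against young and from 0.02 to 0.16 for NR-treated against aged HSC, with 29.1% and 78.4% of calls higher, and added Itgb3 to the latter, giving 2 of the 10 genes called. A log2 fold change of at least 1 left 4 of the 7 genes called for NR-treated against young HSC, and leaving out single libraries gave 5 to 8.

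Counts of the 76 other platelet genes depended more on the settings. For aged against young HSC 26 were called, and 16 when thinned, 17 without young replicates 1 and 5, 13 at adjusted p under 0.01, 11 at a log2 fold change of at least 1, and 18 to 29 with single libraries left out. For NR-treated against aged HSC 13 were called, and 5 when thinned, 8 with the replicate block, 1 at adjusted p under 0.01, 6 at a log2 fold change of at least 1 and 3 to 15 with single libraries left out (5, 8 and 6 without aged replicate 3, 4 or 5, and 4 and 3 without NR-treated replicate 3 or 4). For NR-treated against young HSC 9 were called, and 5 at adjusted p under 0.01, 4 at a log2 fold change of at least 1 and 5 to 11 with single libraries left out (5 without NR-treated replicate 2 or 4). The stricter thresholds and the thinned reads lower these counts by construction.

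The log2 difference of Pf4 between NR-treated and aged HSC turned to -0.04 with limma-voom and ran from -0.14 to 0.34 with single libraries left out, and that of Gp9 between aged and young HSC turned to -0.085 with library totals, -0.025 with the filter at 10 counts and -0.021 when thinned, and ran from -0.007 to 0.142 with single libraries left out. The cause was not tested. Same-numbered libraries correlated between -0.24 and 0.15 in their deviations from the group means, over 0.1 in 4 of 15 pairs. Whether same-numbered libraries shared more than a number was not tested. With the replicate block 5, 1 and 7 of the 10 genes were called in the 3 comparisons, the same genes as without it, and 25, 8 and 7 of the other platelet genes. Depth limits the low genes: the shallowest library had 764119 counts, and Clec1b had 3 counts in young replicate 2.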
